A study of Glycine max with 12 samples.

Results

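The genes described here are the 4 plant genes of soybean (Glycine max) that are assigned to the nematode resistance loci Rhg1 and Rhg4. They were taken by locus identifier: Glyma18g02580 (amino acid transporter), Glyma18g02590 (alpha-SNAP) and Glyma18g02610 (wound-inducible protein) of Rhg1 on chromosome 18, and Glyma08g11490 (serine hydroxymethyltransferase) of Rhg4 on chromosome 8. All 4 were present among the 66210 gene models of the 10 count libraries and in both RPKM libraries. Each of the 12 libraries came from polyA+ RNA of cultivar Williams 82, with 1 library per stage or organ and no infection or other treatment named in the labels. The seed libraries were whole seeds at the globular stage (0.8 to 1.1 mm long), heart stage (2 to 2.5 mm), cotyledon stage (3 to 3.9 mm), then early maturation at 6 to 7 mm, mid maturation at 1.1 to 1.3 cm, late maturation at 1.2 to 1.5 cm, and dry seeds. The others were whole seedlings 6 days after imbibition, roots without nodules, trifoliate leaves, stem internodes and unopened floral buds. With 1 library per group there was no spread between replicates, so no test was made and no p-value is given.

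Rhg1 and Rhg4 are the main loci for resistance of soybean to the soybean cyst nematode, Heterodera glycines, a parasite that feeds inside roots from a syncytium of fused plant cells. In resistant lines Rhg1 is a tandemly repeated segment that carries the transporter, the alpha-SNAP and the wound-inducible protein genes together. Alpha-SNAP works with the ATPase NSF to take apart SNARE complexes after membrane fusion, and serine hydroxymethyltransferase interconverts serine and glycine in one-carbon folate metabolism. Williams 82 is a susceptible cultivar with an unrepeated Rhg1 segment, so the values below are baseline levels of the susceptible form.

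The 10 count libraries held between 10296612 (stem) and 45726019 (globular seed) counts, and the deposited RPKM implied 59542387 reads at mid maturation and 103601188 at late maturation. Levels in CPM are counts brought to a common library size by TMM scaling, and the intervals are exact 95% counting intervals, which cover counting error only and nothing of the variation between plants. As a check of the labels, the glycinin gene Glyma03g32030 reached 8383 CPM in early-maturation seed and at most 9.18 CPM in seedling, root, leaf, stem and floral bud. All 4 listed storage protein and lectin genes were highest in early-maturation or dry seed and at most 10.2 CPM in the 5 libraries outside seed. Each of the 4 was also higher in globular seed (2.41 to 8.73 CPM) than in heart seed (0.0418 to 1.42 CPM), and the cause was not tested. The Rubisco small subunit gene Glyma19g06340 had 295 CPM in leaf and 1.12 CPM in root. The listed small subunit gene Glyma13g07610 had 0 counts in all 10 count libraries, and no markers were fixed for root, stem or floral bud.

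Glyma18g02580, the amino acid transporter gene, was highest in root, seedling and stem. It had 11.4 CPM in globular seed, 18.5 in heart seed, 22.6 in cotyledon seed, 15.0 in early-maturation seed and 11.7 in dry seed. It had 42.6 CPM in seedling, 51.9 in root, 13.7 in leaf, 42.3 in stem and 18.3 in floral bud, from 149 (dry seed) to 1107 (root) counts. Root, seedling and stem thus lay apart from the other 7 libraries, stem being 1.87-fold above cotyledon seed (1.65 to 2.11). In the order of levels, seedling and stem did not differ beyond counting error, nor did heart seed and floral bud, nor any neighbours in the series early-maturation seed, leaf, dry seed and globular seed. The highest value was 4.56 times the lowest (4.12 to 5.05), where the median gene with a mean of at least 1 CPM had a fold range of 13.5 over the same 10 libraries. With plain CPM dry seed became the lowest library, at 6.93 against 12.4 in globular seed.

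Glyma18g02590, the alpha-SNAP gene, was detected in all 12 libraries and, among the 10 count libraries, was lowest in dry seed. It had 38.9 CPM in globular seed, 54.6 in heart seed, 52.4 in cotyledon seed, 57.6 in early-maturation seed and 20.3 in dry seed. It had 104.7 CPM in seedling, 69.8 in root, 63.3 in leaf, 79.2 in stem and 50.9 in floral bud. Seedling was the highest library, 1.32-fold above stem (1.22 to 1.44), and dry seed lay 1.92-fold below globular seed, the next lowest (1.68 to 2.19). Early-maturation seed, heart seed, cotyledon seed and floral bud followed each other with no step beyond counting error. The fold range over the 10 libraries was 5.16 (4.53 to 5.90). It was 3.11 without the dry seed library, with TMM factors estimated anew from the others.

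Glyma18g02610, the gene of a wound-inducible protein, stood out in stem. It had 13.5 CPM in globular seed, 8.49 in heart seed, 15.4 in cotyledon seed, 9.89 in early-maturation seed and 51.8 in dry seed. It had 34.8 CPM in seedling, 82.4 in root, 35.7 in leaf, 180 in stem and 21.7 in floral bud. Stem was 2.19-fold above root (2.05 to 2.33), and root 1.59-fold above dry seed (1.45 to 1.74). Leaf and seedling did not differ beyond counting error, nor did early-maturation seed and heart seed, the lowest pair. Among the 10 count libraries, the 4 young seed stages lay below the rest, and the fold range was 21.2 (18.3 to 24.6).

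Glyma08g11490, the Rhg4 serine hydroxymethyltransferase gene, had the widest range. It had 140 CPM in globular seed, 169 in heart seed, 159 in cotyledon seed and 213 in early-maturation seed. In dry seed it had 6 counts, or 0.472 CPM (0.173 to 1.03). It had 362 CPM in seedling, 183 in root, 631 in leaf, 826 in stem and 307 in floral bud. Stem and leaf were thus the highest libraries, and root was the lowest of the 5 outside seed. Every step in its order of levels with TMM exceeded counting error. The order depended in part on the scaling, as floral bud (389) lay above seedling (378) with plain CPM. The fold range was 1750 (804 to 4769) with TMM and 3051 with plain CPM. With TMM it was wider than that of 98.2% of the 36414 genes with a mean of at least 1 CPM. The range was 6.37 without the dry seed library, with TMM factors estimated anew from the others.

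**Figure D1:**
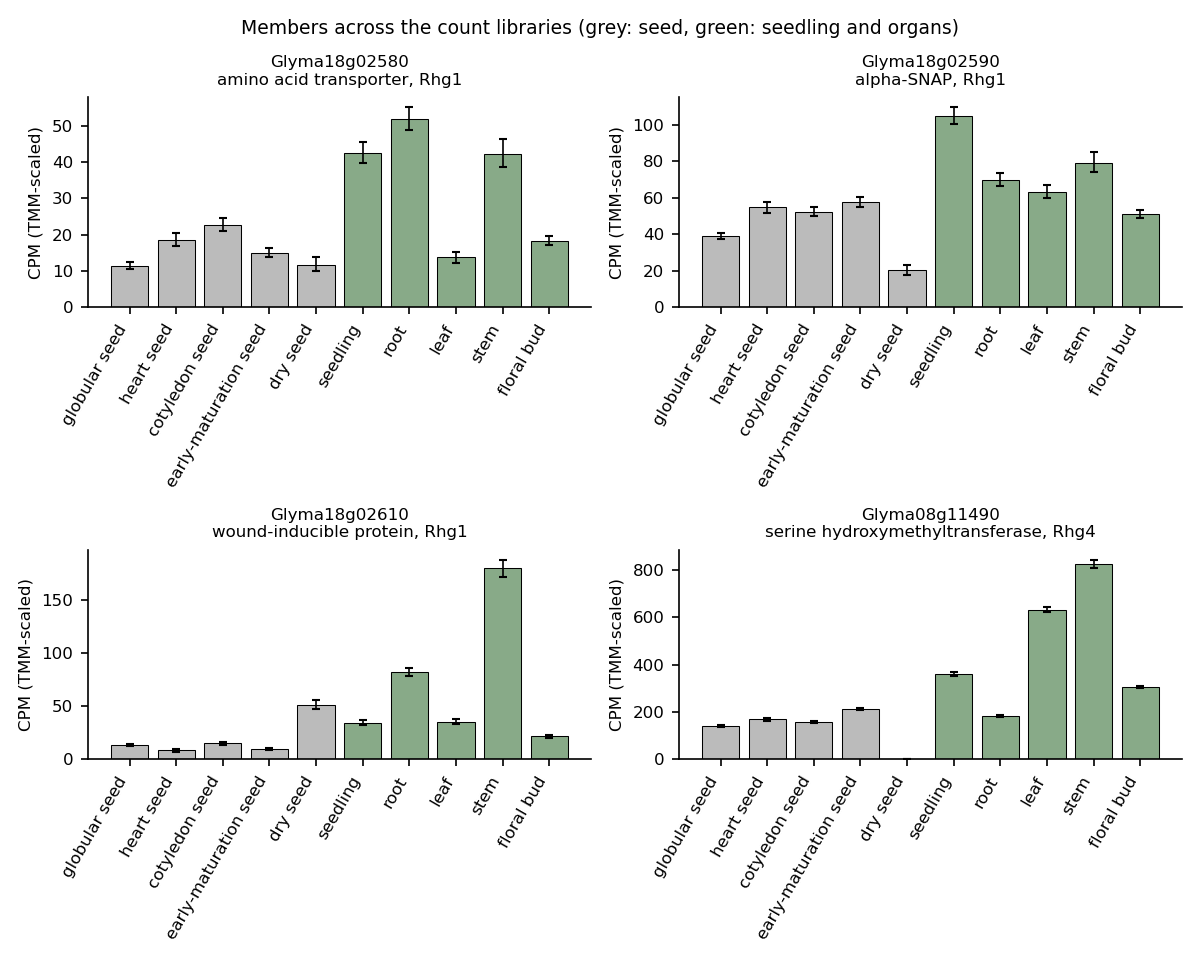
Level of each gene (TMM-scaled CPM, linear axis from 0) in the 10 count libraries, 1 library per bar, with exact 95% counting intervals. Glyma18g02580 is highest in root (51.9 CPM), Glyma18g02590 in seedling (104.7 CPM), and Glyma18g02610 and Glyma08g11490 in stem (180 and 826 CPM); the bar of Glyma08g11490 in dry seed (0.472 CPM) is too low to see.

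To set the genes beside each other, levels were expressed per gene length as RPKM, reads scaled to gene length and library size. The lengths, recovered from the deposited RPKM, were 2142 nt for Glyma18g02580, 1365 nt for Glyma18g02590, 629 nt for Glyma18g02610 and 2047 nt for Glyma08g11490. Such a length may be a whole fraction of the true one, which would make that gene's computed RPKM too high. The RPKM libraries also have another set of gene models than the count libraries, so a length may not match the model behind the counts. On this scale Glyma08g11490 was the highest of the 4 genes in 9 of 12 libraries, the exceptions being root, late-maturation seed and dry seed. In root, Glyma18g02610 led with 139 RPKM, ahead of Glyma08g11490 with 94.7, Glyma18g02590 with 54.1 and Glyma18g02580 with 25.6 RPKM. That lead rests on the recovered lengths, since in root Glyma08g11490 had 183 CPM against 82.4 CPM for Glyma18g02610. In stem, Glyma08g11490 had 416 and Glyma18g02610 had 295 RPKM, against 59.8 for Glyma18g02590 and 20.4 for Glyma18g02580. In dry seed Glyma18g02610 came first at 48.6 RPKM and Glyma08g11490 last at 0.136 RPKM.

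The 3 genes of Rhg1 kept no fixed ratio to each other. Per length, Glyma18g02610 stood at 0.124 times Glyma18g02590 at mid maturation (0.0956 to 0.159), at 0.338 times in heart seed (0.290 to 0.392), at 4.94 times in stem (4.55 to 5.36) and at 5.53 times in dry seed (4.79 to 6.42). Glyma18g02590 exceeded Glyma18g02580 per length in all 12 libraries, by 1.35-fold in late-maturation seed (1.23 to 1.50) up to 7.24-fold in leaf (6.39 to 8.22). Across the 10 count libraries, Pearson r of log2(CPM + 1) was 0.74 for Glyma18g02580 and Glyma18g02590 (Spearman rho 0.75), 0.59 for Glyma18g02580 and Glyma18g02610 (0.35), and 0.20 for Glyma18g02590 and Glyma18g02610 (0.37). Between loci, r was 0.86 for Glyma18g02590 and Glyma08g11490 (rho 0.78), 0.43 for Glyma18g02580 and Glyma08g11490 (0.42), and 0.03 for Glyma18g02610 and Glyma08g11490 (0.37). Dry seed decided some of these values. Without it, over 9 libraries with TMM factors estimated anew, r of Glyma18g02590 was 0.66 with Glyma18g02610, 0.63 with Glyma08g11490 and 0.81 with Glyma18g02580. Over the same 9 libraries, r was 0.71 for Glyma18g02610 and Glyma08g11490, 0.76 for Glyma18g02580 and Glyma18g02610, and 0.34 for Glyma18g02580 and Glyma08g11490. These are descriptions over single libraries that share their scaling.

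**Figure D2:**
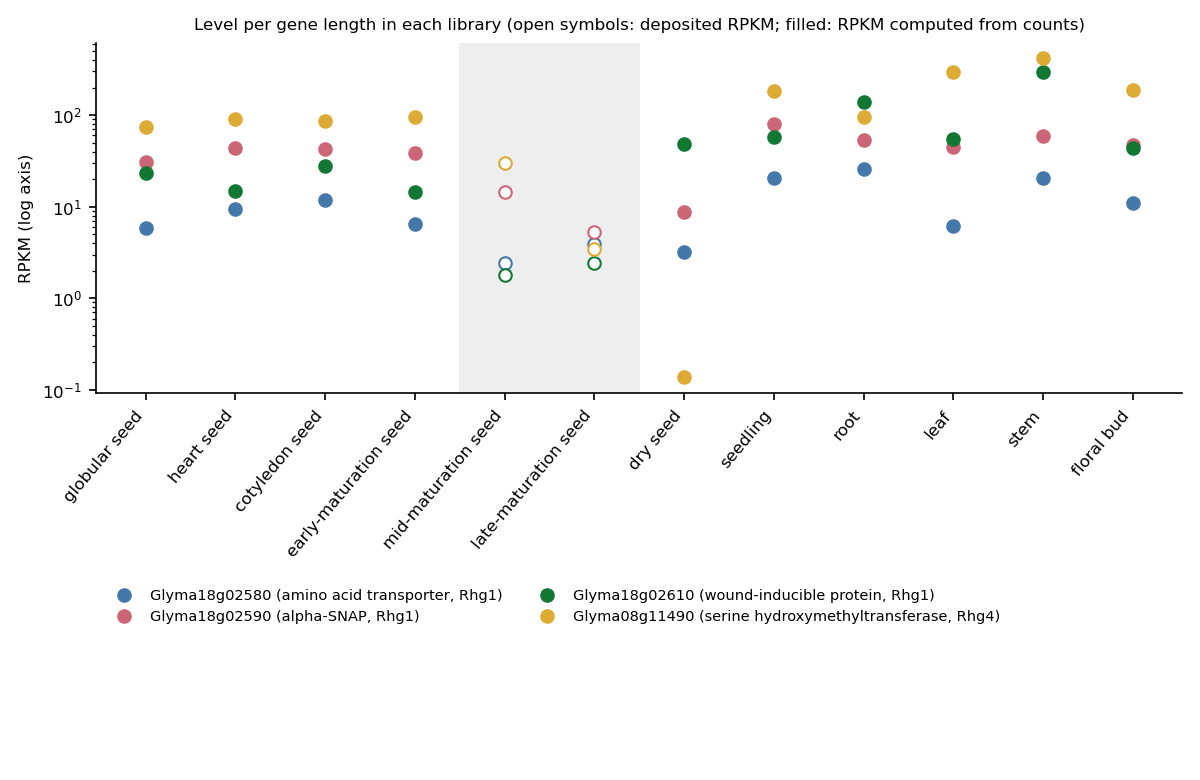
RPKM (log axis) of the 4 genes in all 12 libraries, 1 point per gene and library; open symbols in the shaded band are deposited RPKM and filled symbols were computed from counts and recovered lengths. Glyma08g11490 lies at 416 RPKM in stem and at 0.136 RPKM in dry seed, where Glyma18g02610 is the highest of the 4 at 48.6 RPKM.

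Through the 4 young seed stages the highest level was 1.99 times the lowest for Glyma18g02580, 1.81 times for Glyma18g02610, 1.52 times for Glyma08g11490 and 1.48 times for Glyma18g02590. The median over all genes with a mean of at least 1 CPM in these stages was 1.98. The call rule asked for a difference of at least 4-fold between both libraries and for 10 CPM or more in the higher one, taking any count below 3 as 3. None of the 4 was called in heart over globular seed, cotyledon over heart seed or early-maturation over cotyledon seed, steps in which 2.23%, 0.664% and 3.35% of all measured genes (those averaging at least 1 CPM over the pair) were called, nor did any reach 2-fold. Glyma18g02610 showed the largest log2 ratio of the 4 in cotyledon over heart seed, 0.86, from 15.4 and 8.49 CPM. Glyma18g02580 had log2 ratios of 0.70, 0.29 and -0.59 in the 3 steps. Glyma08g11490 had log2 ratios of 0.27, -0.09 and 0.43, and Glyma18g02590 of 0.49, -0.06 and 0.14. With plain CPM, which put the median of the last step over 32272 genes at -0.28, the last of these values was -0.15.

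In dry seed the genes parted. Glyma08g11490 fell to 6 counts in dry seed, against 7524 counts in early-maturation seed, which put it 452-fold lower (208 to 1232). Glyma18g02610 rose to 51.8 CPM in dry seed, against 9.89 CPM in early-maturation seed, 5.23-fold higher (4.59 to 5.97). Thus 1 of 4 genes was called higher and 1 lower, in a step where 31.7% of measured genes were called, 13.7% higher and 17.9% lower. Glyma18g02590 had 20.3 CPM in dry seed and 57.6 CPM in early-maturation seed (log2 ratio -1.50), and Glyma18g02580 had 11.7 and 15.0 CPM (log2 ratio -0.36), neither called. The scaling mattered here: over 28351 genes, plain CPM put the median log2 ratio at -0.59 and upper-quartile factors at 0.35, against 0.05 with TMM. Over the 32161 measured genes the TMM median was -0.29. With plain CPM the call of Glyma18g02610 was lost (log2 ratio 1.74) and Glyma18g02590 was called lower (-2.15), while Glyma08g11490 stayed lower with all 4 scalings (log2 ratio -9.46 with plain CPM, -8.82 with TMM). In whole tissues, fewer cells of a type and less RNA per cell cannot be told apart.

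In the seedling, Glyma08g11490 rose to 362 CPM, against 0.472 CPM in dry seed, a 766-fold difference (352 to 2089), or a log2 ratio of 9.58 with TMM and 10.40 with plain CPM. Glyma18g02590 rose to 104.7 CPM in seedling, against 20.3 CPM in dry seed (5.16-fold, 4.53 to 5.90). These 2 of 4 genes were called higher and none lower, where 31.2% of measured genes were called, 18.2% higher and 13.0% lower. Glyma18g02580 had 42.6 CPM in seedling and 11.7 CPM in dry seed, 3.63-fold (3.05 to 4.35), below the threshold, which it passed with plain CPM (log2 ratio 2.68). Glyma18g02610 had 34.8 CPM in seedling and 51.8 CPM in dry seed (log2 ratio -0.57). It was -0.65 with DESeq2 size factors and -0.89 with upper-quartile factors. With plain CPM, which put the median over 28703 genes at 0.75, it was 0.25, above 0 but below that median. Over the 33740 measured genes the TMM median was 0.41.

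**Figure D3:**
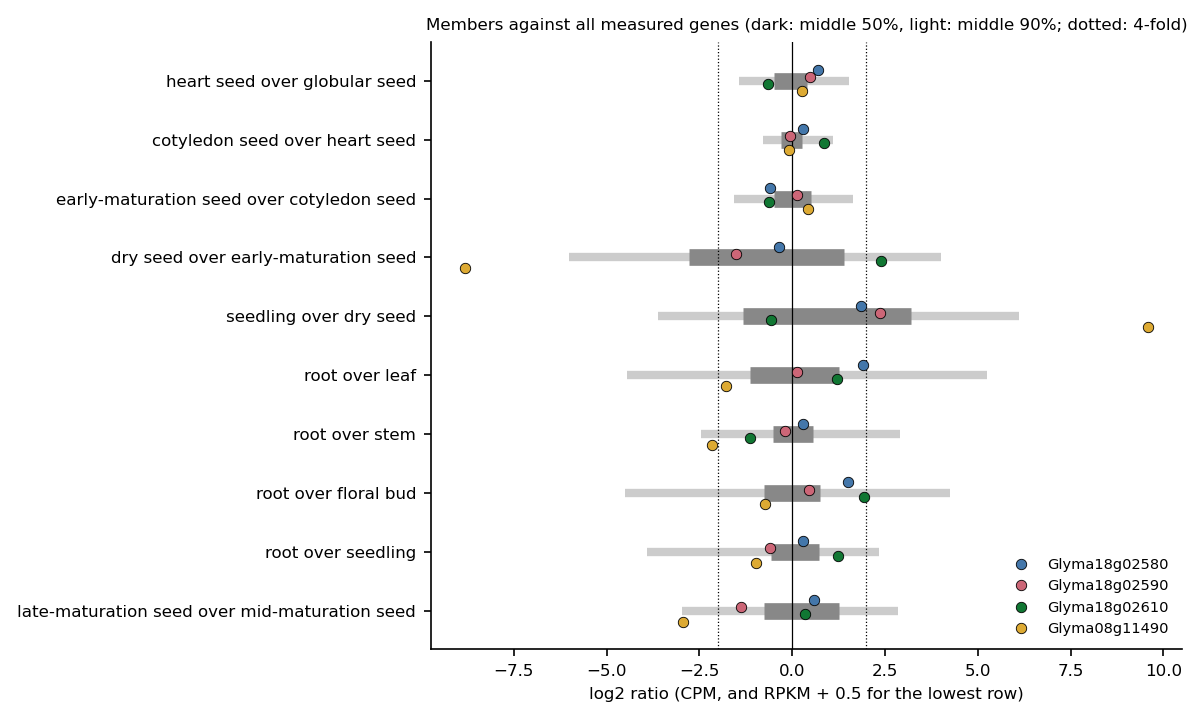
Log2 ratio of the 4 genes in each of 10 comparisons, named library over its counterpart, with the middle 50% (dark) and middle 90% (light) of all measured genes behind them; dotted lines mark 4-fold. Glyma08g11490 lies at -8.82 in dry over early-maturation seed and at 9.58 in seedling over dry seed, and all 4 genes lie within 1 log2 unit of 0 in the first 3 rows.

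Mid and late maturation were deposited as RPKM only and were compared with each other. Glyma08g11490 fell to 3.41 RPKM at late maturation, against 29.7 RPKM at mid maturation (724 and 3614 recovered reads), or 8.69-fold lower (8.02 to 9.42). It was the only gene of the 4 called, lower, in a comparison where 18.3% of measured genes were called, 10.9% higher and 7.35% lower, by the rule of 4-fold on log2(RPKM + 0.5) and at least 5 RPKM. Glyma18g02590 had 5.27 RPKM at late and 14.4 RPKM at mid maturation, 2.73-fold lower (2.49 to 3.00) and not called. Glyma18g02580 had 3.89 RPKM at late and 2.41 RPKM at mid maturation, and Glyma18g02610 had 2.41 RPKM at late and 1.79 RPKM at mid maturation. On the log2(RPKM + 0.5) scale the ratio of Glyma18g02610, 0.346, turned to -0.19 after rescaling by a median log2 ratio of 0.53. That median was taken over 20068 genes only, those that reached 1 RPKM at mid and also at late maturation. Over the 26234 measured genes the median was 0.352, and Glyma18g02610 stood at percentile 49.8 of them. The sign after rescaling thus depended on the genes taken for the median.

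Steps between the count libraries and these RPKM libraries cross another processing, unit and set of gene models, so that in them the stage cannot be told apart from the batch. Glyma08g11490 had 29.7 RPKM at mid maturation, against 96.2 RPKM computed at early maturation, and 0.136 RPKM computed in dry seed, against 3.41 RPKM at late maturation. Its levels in the 4 libraries therefore ran downwards through 96.2, 29.7, 3.41 and 0.136 RPKM. Glyma18g02610 had 1.79 RPKM at mid maturation, against 14.5 RPKM computed at early maturation, and 48.6 RPKM computed in dry seed, against 2.41 RPKM at late maturation. Over all genes that reached 1 RPKM in each library of a pair, the median log2 ratio was -1.13 for mid over early maturation and 0.34 for dry over late-maturation seed. Less these medians, Glyma08g11490 stood at -0.55 and -2.96, Glyma18g02610 at -1.59 and 3.73, Glyma18g02590 at -0.28 and 0.34, and Glyma18g02580 at -0.13 and -0.58.

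Root, the organ in which the nematode feeds, was set against the other organs and the seedling, and these 4 comparisons share the root library. Glyma08g11490 was lower in root than in all 4 of them, with 183 CPM in root against 826 CPM in stem (4.51-fold lower, 4.34 to 4.68), which was called. Of measured genes, 7.34% were called between root and stem, 3.81% higher in root and 3.53% lower. It also stood 3.44-fold below leaf (3.32 to 3.57), 1.97-fold below seedling (1.90 to 2.05) and 1.67-fold below floral bud (1.61 to 1.73), none of which reached the threshold. Glyma18g02580 had its highest level in root. It had 51.9 CPM in root against 13.7 CPM in leaf, 3.78-fold (3.33 to 4.31), which fell short of the threshold with TMM and passed it with plain CPM and with DESeq2 size factors (log2 ratios 2.07 and 2.08). It stood 2.83-fold above floral bud (2.58 to 3.11), 1.23-fold above stem (1.10 to 1.37) and 1.22-fold above seedling (1.11 to 1.33).

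Glyma18g02610 had 82.4 CPM in root against 21.7 CPM in floral bud, 3.79-fold (3.50 to 4.12), which passed the threshold with DESeq2 size factors alone (log2 ratio 2.01). It was 2.31-fold higher in root than in leaf (2.12 to 2.51) and 2.36-fold higher than in seedling (2.16 to 2.59), but in stem it was above root. Glyma18g02590 had log2 ratios of root over leaf, stem, floral bud and seedling of 0.14, -0.18, 0.46 and -0.59. With TMM, 0 of the 4 genes were called in root over leaf, floral bud or seedling, where 22.0%, 13.5% and 10.0% of measured genes were called in either direction.

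Alpha-SNAP is encoded by a small gene family, and 4 further loci are assigned to it by published work: Glyma11g35820, Glyma02g42820, Glyma14g05920 and Glyma09g41590. These assignments were not checked against sequence here, and reads of near-identical copies may have been divided between them. Per length, Glyma18g02590 took the largest share of the 5 genes in 10 of 12 libraries, from 45.6% of their summed RPKM at mid maturation to 57.9% in leaf. At late maturation and in dry seed Glyma11g35820 led, where Glyma18g02590 had 30.9% against 37.0% for Glyma11g35820 at late maturation and 32.7% against 58.7% in dry seed. The ratio of Glyma18g02590 to Glyma11g35820 was 2.11 in seedling (1.96 to 2.28), 1.68 in root (1.55 to 1.83), 1.43 in globular seed (1.33 to 1.53), 0.836 at late maturation (0.759 to 0.922) and 0.557 in dry seed (0.477 to 0.649). Over the 10 count libraries Glyma11g35820 itself lay between 28.7 CPM in globular seed and 52.2 CPM in seedling, a fold range of 1.82 (1.68 to 1.98), narrower than that of all but 1.14% of measured genes. With plain CPM it lay between 22.6 in dry seed and 54.5 in seedling. Its deposited RPKM were 12.4 at mid and 6.30 at late maturation, against 15.8 to 38.0 RPKM computed for the count libraries.

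The other 3 loci were lower. Glyma14g05920 had 20.0 CPM in seedling and 1.26 CPM in leaf, its highest and lowest libraries. It was called lower in dry over early-maturation seed (2.28 and 10.0 CPM) and higher in seedling over dry seed (20.0 and 2.28 CPM), the only calls among these 4 genes in the 10 comparisons. In those steps 17.9% of measured genes were called lower and 18.2% higher. The call in dry over early-maturation seed only just met the 10 CPM minimum (10.01 CPM with TMM). It was not met with plain CPM (9.24), DESeq2 size factors or upper-quartile factors. Glyma09g41590 lay between 2.44 CPM in dry seed and 15.2 CPM in stem. Glyma02g42820 had at most 80 counts (early-maturation seed) and 0 counts in root, where 3 counts equal 0.141 CPM. Across the 10 libraries, r of log2(CPM + 1) with Glyma18g02590 was 0.82 for Glyma09g41590, 0.62 for Glyma14g05920 and 0.61 for Glyma11g35820. Over the 9 libraries without dry seed, with TMM factors estimated anew, it was 0.63 for Glyma09g41590, 0.52 for Glyma14g05920 and 0.93 for Glyma11g35820.

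**Figure D4:**
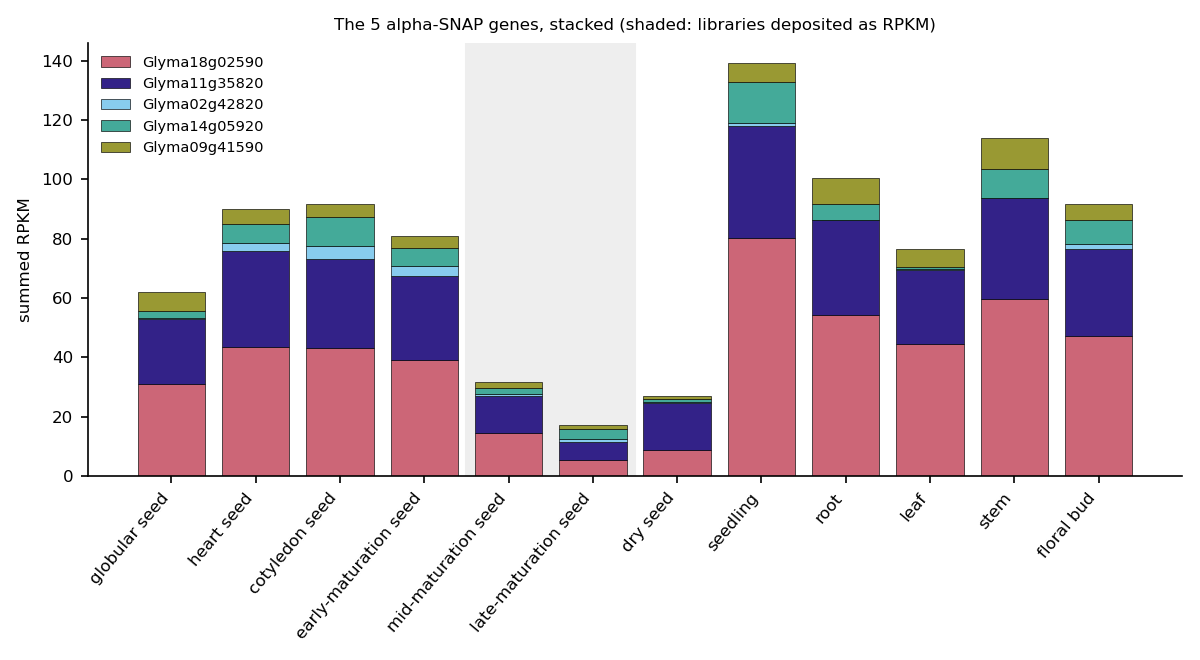
Summed RPKM of the 5 alpha-SNAP genes in each of the 12 libraries, stacked by gene, with the RPKM libraries shaded. Glyma18g02590 makes up 57.6% of the stack in seedling and 32.7% in dry seed, where Glyma11g35820 makes up 58.7%.

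The surroundings of both loci were described by identifier, since identifiers follow the order of genes along a chromosome. Of the 16 gene models from Glyma18g02520 to Glyma18g02670, 13 were not among the 4 genes, and 5 of these 13 reached 10 CPM in some library. Between the alpha-SNAP gene and the wound-inducible protein gene, Glyma18g02600 was low: 4 to 83 counts per count library. Among the count libraries it was highest in dry seed, at 3.85 CPM with TMM. Per length, dry seed had 1.41 RPKM, below the deposited 3.06 and 3.17 RPKM at mid and late maturation. RefSeq likewise lists 1 gene between SNAP18 and WI12 and none between Rhg1-GmAAT and SNAP18 (assembly Glycine_max_v4.0). Glyma18g02570, on the other side of the transporter gene, lay between 8.47 CPM in leaf and 14.3 CPM in early-maturation seed, a fold range of 1.69 (1.43 to 2.01). Per length, the medians over the 10 count libraries of the 7 neighbours with a recovered length ran from 0.645 to 21.9 RPKM. The medians of the Rhg1 genes were 10.1 (Glyma18g02580), 43.9 (Glyma18g02590) and 46.2 RPKM (Glyma18g02610).

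Of the 13 gene models from Glyma08g11430 to Glyma08g11550, the nearest on either side of Glyma08g11490 were Glyma08g11480 and Glyma08g11500. Glyma08g11480 shared its highest library (stem), its next (leaf) and its lowest (dry seed) with Glyma08g11490, at 1241, 1223 and 284 CPM. Its counting intervals in stem and leaf overlapped (1220 to 1263 and 1208 to 1237 CPM). Glyma08g11500 shared the low level of Glyma08g11490 in dry seed, with 4 counts, but was highest in heart and cotyledon seed, at 169 and 167 CPM, and had at most 42.9 CPM outside seed. RefSeq lists a further gene on chromosome 5 under the synonyms GmSHMT05c and rhg4h. It was not analysed here, because none of the 74818 identifiers of the files matched the RefSeq table, and reads shared between it and Glyma08g11490 could not be assessed.

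**Figure D5:**
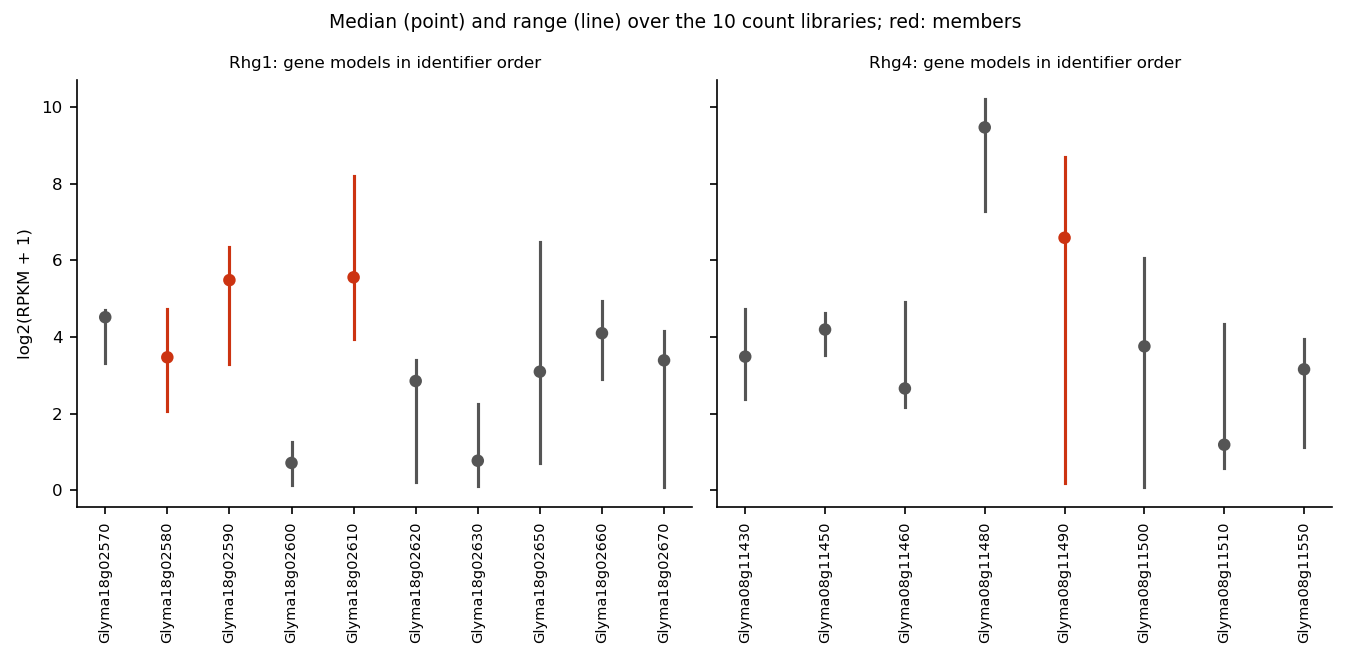
Median (point) and range (line) of log2(RPKM + 1) over the 10 count libraries for gene models with a recovered length around Rhg1 (left) and Rhg4 (right), in identifier order, with the 4 genes in red. Glyma18g02600 has a median of 0.645 RPKM between its red neighbours, and Glyma08g11490 spans 0.136 to 416 RPKM.

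The genes with the most alike profiles were sought among 29549 genes with at least 10 CPM in some library, by Pearson r of log2(CPM + 1) over the 10 count libraries. For Glyma18g02580 they were Glyma18g09340 (r = 0.987) and Glyma18g09920 (r = 0.984), both highest in root and at 0 counts in dry seed. For Glyma18g02590 they were Glyma14g36540 (r = 0.986) and Glyma19g32550 (r = 0.979), both highest in seedling. For Glyma18g02610 they were Glyma14g06450 (r = 0.979) and Glyma17g08000 (r = 0.975), and for Glyma08g11490 they were Glyma03g03190 (r = 0.997) and Glyma19g29180 (r = 0.990), all highest in stem. None of the other members was among them. At r of at least 0.9 stood 436 genes for Glyma18g02580, 179 for Glyma18g02590, 62 for Glyma18g02610 and 586 for Glyma08g11490.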

How the data were processed

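For 10 libraries the authors deposited raw read counts per gene model; the submitters' processing notes name Bowtie. For mid and late maturation the authors deposited RPKM, for genes above 0 only; the notes name Bowtie and bedtools for these. Tool versions, build, annotation and the treatment of multiply mapping reads: not given in the sources used here. Counts were scaled with TMM (edgeR 4.0.16, R 4.3.3). Each fold has a 95% Clopper-Pearson interval, from a binomial conditional on the sum of both counts. Measured genes had a mean of at least 1 CPM or RPKM over the libraries compared. Depth and gene lengths were recovered from the RPKM, whose low values step by the worth of 1 read: 87.4% and 91.1% of the 1500 lowest values in the mid- and late-maturation files came out whole within 0.03. RPKM of count libraries used total counts. Length recovery and calling were tested on simulated data. Alternatives used plain CPM, DESeq2 1.42.0 size factors, upper-quartile factors, other thresholds and pseudocounts. The text names the 4 genes, the listed alpha-SNAP and marker genes, the nearest neighbours by identifier and the 2 most alike genes each. These members and lists were chosen with earlier results of these data known, and locus names are published assignments, not checked against sequence. Other software was matplotlib 3.10.9, scipy 1.17.1, pandas 2.3.3, numpy 2.4.6 and Python 3.11.15.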

Additional observations from a re-analysis of the deposited data

How the results depend on the processing

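No paired analysis was possible because each group has 1 library. The library with the highest level of each of the 4 genes was unchanged with plain CPM, DESeq2 size factors and upper-quartile factors. In root over leaf, 0 genes were called with TMM, 1 with plain CPM, 1 with DESeq2 size factors and 3 at a 2-fold threshold. In root over floral bud, 0 were called with TMM, 1 with DESeq2 size factors and 2 at 2-fold. At 2-fold, 2 genes were called in root over stem, 1 in root over seedling and 2 in late over mid maturation, against 1, 0 and 1 at 4-fold. In dry over early-maturation seed the count stayed at 2 with plain CPM, but of other genes (Glyma18g02590 in place of Glyma18g02610). The fold range over the 10 count libraries was 7.92 with plain CPM and 5.44 with DESeq2 size factors for Glyma18g02580 (TMM 4.56). For Glyma18g02590 it was 9.12 with plain CPM, 4.12 with upper-quartile factors and 3.11 without the dry seed library (TMM 5.16). For Glyma08g11490 it was 6.37 without the dry seed library. Values without that library used TMM factors estimated anew from the others, so they include a change of scaling. The scalings differed most in dry seed, where the TMM factor was 0.591. The cause of these differences was not tested. Depth limits Glyma08g11490 in dry seed (6 counts) and Glyma18g02600 and Glyma02g42820 in most libraries.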

Other observations

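Near Rhg1, the neighbour Glyma18g02660, chosen here after its values were seen, was highest in dry seed at 77.5 CPM and lowest in globular seed at 9.03 CPM. Near Rhg4, Glyma08g11430, Glyma08g11460, Glyma08g11550 and Glyma08g11450 were highest in dry seed with TMM, at 90.5, 97.4, 44.7 and 44.1 CPM. They were also chosen after their values were seen, and in dry seed Glyma08g11490 near them had 0.472 CPM. Glyma08g11550 was lowest in early-maturation seed, at 3.88 CPM. Glyma08g11450 had a fold range of 2.89, below the 4-fold threshold, so it was not called. Per length on total counts, the highest levels of Glyma08g11450 and Glyma08g11550, 23.6 and 14.5 RPKM, were not in dry seed. Of the 12 neighbours of Glyma08g11490, 3 were called higher and 1 lower in dry over early-maturation seed, and of the 13 neighbours of the Rhg1 genes 1 was called higher and 2 lower. Over all measured genes the shares in that step were 13.7% higher and 17.9% lower. The neighbours include gene models too low to be measured, since 8 of the 12 and 10 of the 13 reached 1 CPM in some library.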
